A study of Mus musculus with 16 samples.

Results

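AIRmax and AIRmin mice are outbred lines bred from a shared founder population for the strongest and the weakest acute inflammatory response. The comparison described here concerns the genes whose footpad signal separated the lines whether or not pristane had been given. A gene was taken when all 8 AIRmax arrays lay on one side of all 8 AIRmin arrays. By this rule 149 of 19938 genes were chosen, which is 0.747% of the genes tested. Of these, 78 (0.391%) were higher in AIRmax and 71 (0.356%) were higher in AIRmin.

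RNA of whole footpads was hybridised to Affymetrix Mouse Gene 1.0 ST arrays, with 4 arrays (2 of males and 2 of females) for control and for pristane mice of either line. The labels describe both lines as outbred stock and give an age of 2 to 4 months for all mice, without saying whether this is the age at the start or at sampling. Pristane mice had received 2 intraperitoneal injections of 0.5 ml of pristane 60 days apart and were sampled on day 160, whereas control mice were sampled on day 0, so treatment and time cannot be told apart. The study describes AIRmax as susceptible and AIRmin as resistant to pristane arthritis. No arthritis score of single mice was used here, so a pristane array need not be that of an arthritic paw. Arrays 105 to 112 were all AIRmax and arrays 113 to 120 all AIRmin, so the number of the array and the line cannot be told apart either.

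Inbred and outbred mouse lines differ in the alleles they carry, and an allele with a changed promoter, a gene duplication or a deletion can change the amount of a transcript whatever the treatment. The major histocompatibility complex, the immune gene cluster on mouse chromosome 17, is among the most variable regions of the genome. Different haplotypes there are given for the lines by the study, H2b in AIRmax and H2kd in AIRmin. Footpad tissue holds skin, muscle, bone, joint and marrow, so that a line may also differ in the share of each.

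A pair of the 149 genes are microRNA genes of one cluster on chromosome 8, Mir23a and Mir24-2, with Mir27a between them, and their RefSeq sequences are shown because the whole cluster was lower in AIRmax. The Mir23a hairpin lies at chr8:84208518-84208592, the Mir27a hairpin at chr8:84208672-84208758 and the Mir24-2 hairpin at chr8:84208815-84208921 of GRCm38.p6, all on the plus strand. Capitals mark the seed, bases 2 to 8, with which a microRNA pairs with its targets.
mmu-miR-23a-3p: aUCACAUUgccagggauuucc
mmu-miR-27a-3p: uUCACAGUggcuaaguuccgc
mmu-miR-24-3p: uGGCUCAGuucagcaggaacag
The 3 seeds differ. Mir23a signal ranged from 6.61 to 7.16 (median 6.91) over the AIRmax arrays and from 7.23 to 7.93 (median 7.62) over the AIRmin arrays, on the log2 scale that all signals below share. For Mir24-2 the ranges were 5.64 to 6.18 (median 5.97) in AIRmax and 6.27 to 6.80 (median 6.43) in AIRmin. Mir27a is not among the 149 genes, since 1 AIRmin array, number 119 at 6.91, fell below the highest AIRmax arrays. Its mean was 6.81 ± 0.18 in AIRmax and 7.55 ± 0.31 in AIRmin (SD, n = 8 each). The differences, AIRmax minus AIRmin, were -0.73 for Mir23a, -0.74 for Mir27a and -0.56 for Mir24-2. The arrays carry probes for the microRNA genes, and whether precursor or mature RNA gave these signals is not given in the sources used here.

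Array medians were 5.44 to 5.49 in AIRmax and 5.47 to 5.53 in AIRmin. No single array stood apart in scale, but every AIRmax median except that of array 111 lay below all AIRmin medians. After quantile normalization 107 of the 149 genes were still without overlap. What this offset contributes to genes that only just met the rule was not tested further. Tissue content was uneven, and in keratinocyte and granulocyte markers 3 AIRmax arrays stood apart. The mean signal of 13 keratinocyte markers was 9.45, 9.49 and 8.51 on AIRmax arrays 108 (control), 109 and 112 (both pristane) and 10.17 to 11.11 on the AIRmin arrays. On the same 3 arrays the mean of 15 neutrophil and granulocyte precursor markers was 11.36, 11.40 and 11.34, against 6.86 to 10.70 over AIRmin. Other arrays stood apart in other markers. AIRmin pristane arrays 117 and 119 had the lowest bone means (6.89 and 6.65), and AIRmax pristane array 111 the lowest skeletal muscle mean (8.02). What these contribute to the line differences was not tested beyond leaving out single arrays. Markers of footpad tissue were present on every array, with list means over all 16 arrays of 8.51 to 11.11 for keratinocytes, 8.02 to 10.51 for skeletal muscle and 6.65 to 8.60 for bone. As the file holds no detection calls, Xist in the 8 males (3.45 to 4.32) and Kdm5d, Eif2s3y and Uty of the Y chromosome in the 8 females (2.04 to 3.34) served to show where an absent transcript reads. In 21 of the 149 genes the mean of the lower line lay in that range, so their difference is a lower bound, and in 6 of them both lines did, so those say little about expression.

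Differences between the lines over the 149 genes ran from 0.17 to 6.08 log2 units in size, with a median of 0.51 against 0.12 over all genes. There were 70 genes under 0.5, 51 between 0.5 and 1, and 28 at or above 1, of which 14 were higher in each line. The gap, which is the lowest array of the higher line minus the highest array of the lower line, ran from 0.00 to 4.86 with a median of 0.06. It reached 0.1 in 44 genes, 0.2 in 25 and 0.5 in 9. Just inside the rule lay Rabgef1 (gap 0.000229) and Serp1 (gap 0.00047), and just outside it lay Tmem242 (gap -0.000455) and Atp5mpl (gap -0.002027). Membership of the genes at this edge therefore rests on differences far below the spread of replicates.

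**Figure D1:**
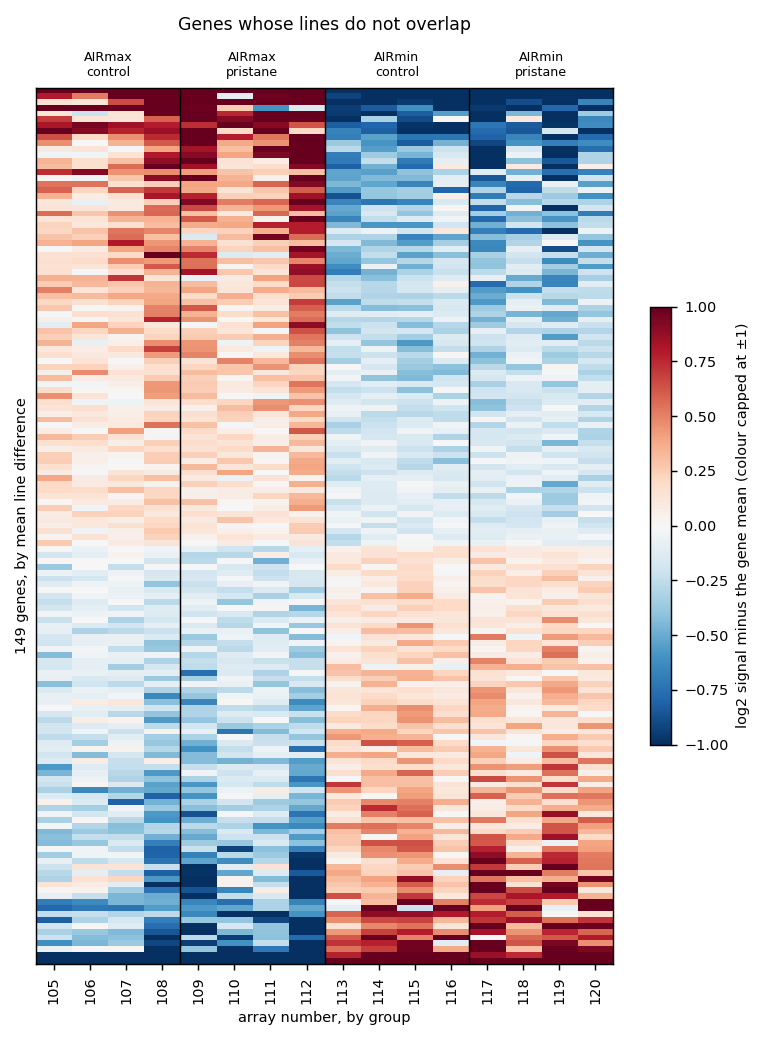
Signal of the 149 genes (rows, ordered by mean line difference) on the 16 arrays (columns, by group), as log2 signal minus the mean of the gene over all arrays, with colour capped at ±1. The upper 78 genes are red in AIRmax and blue in AIRmin and the lower 71 the reverse, and the colours of many genes are deepest on AIRmax arrays 108, 109 and 112.

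In the linear model with treatment as a covariate, limma called 1596 of all genes different between the lines at an adjusted p under 0.05, which is 8.0% of the genes tested (800 higher in AIRmax, 4.01%, and 796 lower, 3.99%). Of the 149 genes 147 were among them, with a largest adjusted p of 0.0649, but the same values chose the genes, so this count is a description. Without arrays 108, 109 and 112, a comparison added after the values were seen, limma called 107 genes in all (0.537%), and 62 of the 149 were among these. The line difference of 124 of the 149 genes was then smaller than with all arrays. The ratio of the reduced to the full difference had a median of 0.882 and ran from 0.46 to 1.26, and it was under 0.667 in 15 genes. Leaving out arrays also lowers the power of the test, and no other set of arrays of this size was left out for comparison. Single arrays left out in turn gave 549 to 2142 calls, with 549 for AIRmin array 117. A call lost here and below therefore cannot be told apart from lost power. What the tissue content of these arrays contributes to each difference was not tested beyond leaving them out.

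The 9 genes with the widest gap were the channel gene Kcnma1 and the genes Prkx, Gbp2b, Cd300ld and Tlr1, all higher in AIRmax, and H2-Ea, Tpsab1, Glo1 and Abca5, all lower. All 9 kept their separation when the arrays were standardized or quantile normalized. Of the 9, only Kcnma1 and Glo1 have more than 1 probe set. Both kept their separation when read as the mean of their probe sets, which changes nothing for the other genes. Without arrays 108, 109 and 112 the limma adjusted p of these 9 genes ran from 7.75e-10 for Kcnma1 to 0.00424 for Gbp2b. The 13 remaining arrays also served to choose the genes, so calls kept or lost in this smaller set, here and for the genes below, are descriptions.

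**Figure D2:**
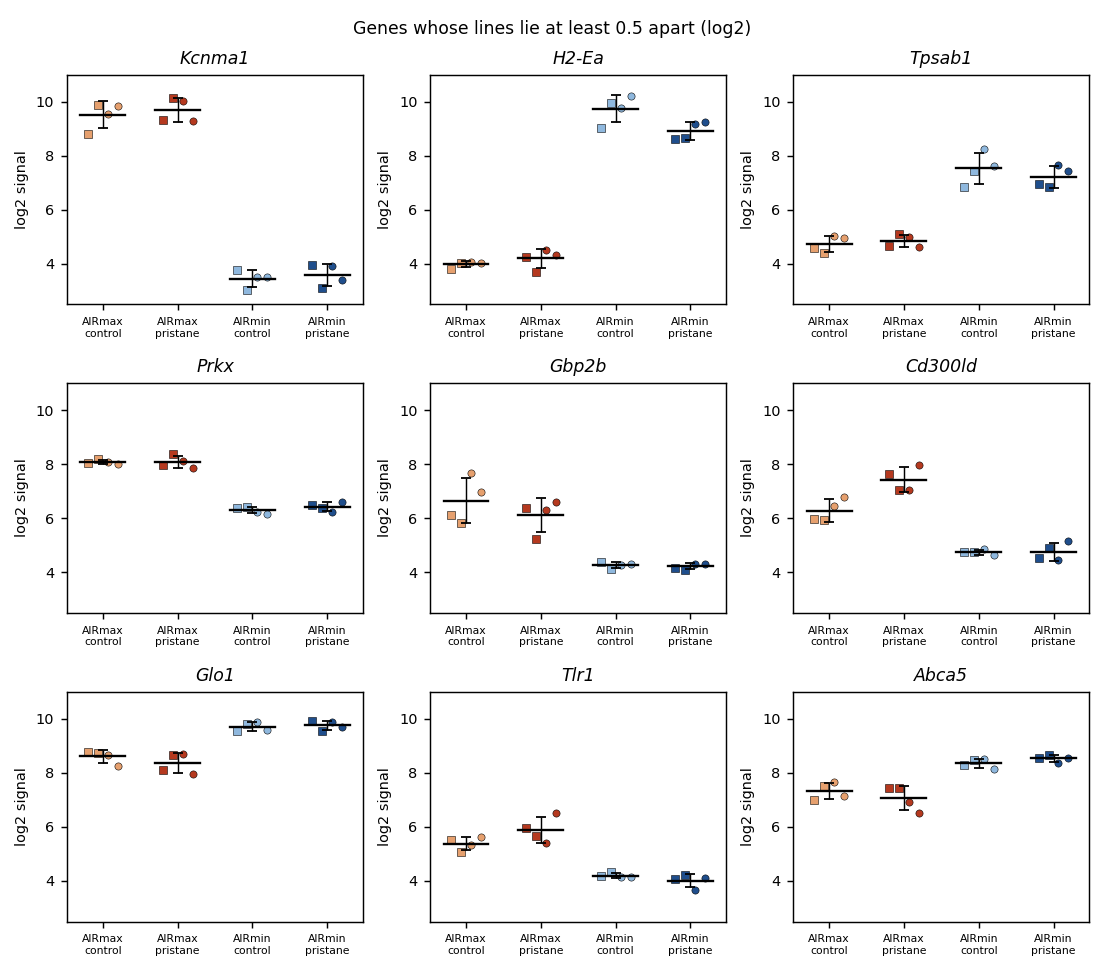
Log2 signal of the 9 genes whose lines lay at least 0.5 apart, by group (squares, males; circles, females; line and bar, mean ± SD, n = 4 arrays a group). In each panel every AIRmax point lies on one side of every AIRmin point, with Kcnma1 and H2-Ea separated most widely.

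H2-Ea encodes the alpha chain of the class II molecule H2-E, which presents peptides to CD4 T cells, and strains of the H2b haplotype are known to carry an Ea allele that is not transcribed. It lies at chr17:34341952-34344645. Its signal was 3.72 to 4.52 (median 4.05) in AIRmax, the level of absent transcripts, and 8.60 to 10.20 (median 9.20) in AIRmin. AIRmin was thus at least 37.5-fold higher, and no array came within 4.08 log2 units of the other line. In control footpads the difference was -5.74 ± 0.21 (SE) and in pristane footpads -4.71 ± 0.21. Of 10 class II genes measured, limma called 4 higher in AIRmax (4.01% of all genes were) and only H2-Ea lower (3.99%), with a list median of 0.47 against -0.02 over all genes. H2-Eb1, the beta chain partner of H2-Ea, was 9.56 ± 0.53 in AIRmax and 8.98 ± 0.39 in AIRmin (SD, n = 8 each; limma adjusted p = 0.0512) and its lines overlapped. Without arrays 108, 109 and 112 the calls in this list were 2 higher, H2-Ab1 and H2-DMa, and 1 lower, H2-Ea, while the list median was 0.57.

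Tpsab1, a tryptase stored in mast cell granules, lies on the same chromosome at chr17:25343245-25345562. AIRmax arrays read 4.40 to 5.09 (median 4.80) and AIRmin arrays 6.83 to 8.23 (median 7.42), a 5.98-fold difference. Of 18 mast cell genes measured, 1 was called higher in AIRmax and only Tpsab1 lower, a share near that of all genes (8.0%). The list median was -0.06 with all arrays and -0.17 without arrays 108, 109 and 112, and the list mean ran from 5.61 to 6.44 in AIRmax and from 5.74 to 6.32 in AIRmin. For example, the carboxypeptidase Cpa3 was 8.07 ± 0.62 in AIRmax and 8.40 ± 0.49 in AIRmin, and the tryptase Tpsb2 was 7.07 ± 0.28 and 7.45 ± 0.35 (SD, n = 8 each), neither of which limma called.

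Glo1, which detoxifies methylglyoxal and is known to be duplicated in some mouse strains, lies at chr17:30592861-30612659. Its signal was 7.96 to 8.78 (median 8.66) in AIRmax and 9.54 to 9.93 (median 9.74) in AIRmin, a 2.38-fold difference. The gene has a second probe set on the array, which the choice of genes did not use. There the AIRmax arrays read 7.97 to 8.79 and the AIRmin arrays 9.44 to 9.90, a difference of -1.23 with a gap of 0.66. The 10 probe sets nearest in number to this second one all belong to genes on chromosome 2, although Glo1 lies on chromosome 17. Its values also stayed close to those of the first, at 8.79 against 8.78 on array 105 and 9.44 against 9.54 on array 113. It is therefore not taken as an independent measure, and what it measures was not tested. Gsta4, which conjugates lipid peroxidation products to glutathione, was lower in AIRmax too, at 6.56 to 8.87 (median 8.30) against 9.14 to 10.49 (median 9.66). In the list of glutathione transferases and glyoxalases 7 of 23 were called lower in AIRmax and 0 higher, where 3.99% of all genes were called lower, and the list median was -0.23 against -0.02 over all genes. Without arrays 108, 109 and 112 the median was -0.25, but 2 were called (0.537% of all genes were), Glo1 and Mgst3, and Gsta4 was not (-1.46, limma adjusted p = 0.0775).

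Kcnma1, named for the pore subunit of the large-conductance calcium-activated potassium channel, showed the largest difference of all named genes. Its brighter probe set read 8.81 to 10.13 (median 9.69) in AIRmax and 3.02 to 3.95 (median 3.51) in AIRmin, the level of absent transcripts, which makes AIRmax at least 67.6-fold higher. Its other probe set gave no such difference, at 5.96 to 6.80 in AIRmax and 5.93 to 6.68 in AIRmin, with a mean difference of -0.06. Probe sets of neighbouring number on this array mostly belong to neighbouring genes. The 10 nearest numbers around the brighter Kcnma1 probe set all belong to genes on chromosome 8, although Kcnma1 is annotated at chr14:23292288-24005110. Close to it in number lies a probe set with no gene in the annotation table, picked after its values were seen. It was higher in AIRmax by 1.82 with a gap of 0.42, and what it measures was not tested. The signal of the brighter probe set is therefore given as that of one probe set assigned to Kcnma1. Whether it measures the channel transcript was not tested. Among the probe sets used, a mismatch of number and annotated chromosome occurred in 4 of the 148 placed genes (2.7%), namely AI506816, Rps18, Cyb5r4 and Kcnma1. Over all genes it occurred in 321 of 19856 (1.62%).

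**Figure D3:**
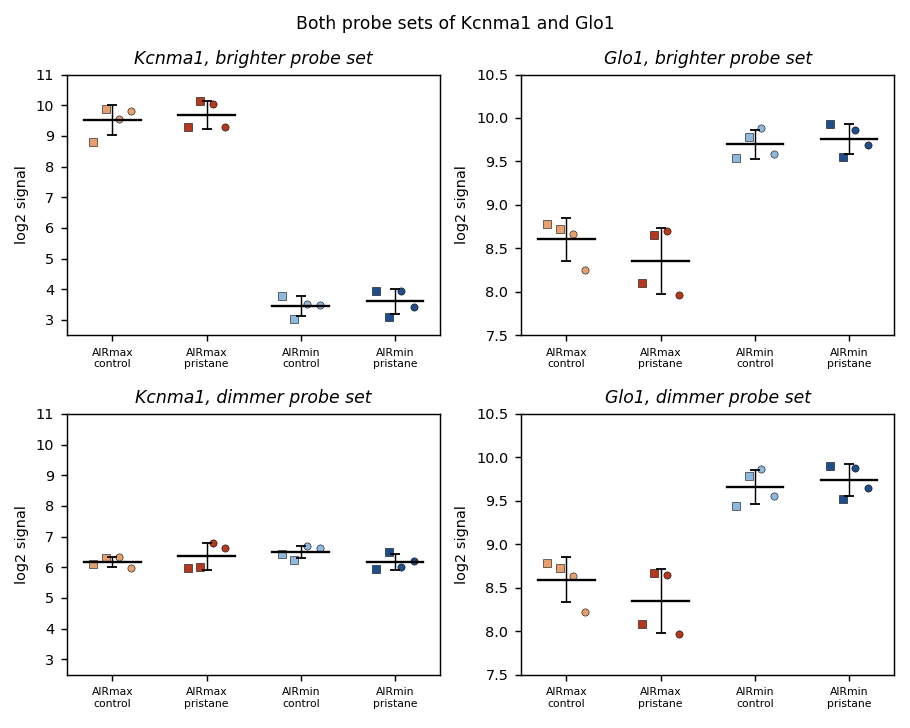
Log2 signal by group for both probe sets of Kcnma1 (left) and of Glo1 (right), with squares for males, circles for females and mean ± SD (n = 4). The Glo1 probe sets both separate the lines, whereas only the brighter Kcnma1 probe set does. The brighter Kcnma1 and the dimmer Glo1 probe set are each numbered among those of another chromosome.

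Among the 149 genes 10 had more than 1 probe set, with 17 further probe sets between them. In 4 of these 17 the lines did not overlap, namely the second one of Glo1 and 3 of Gm10590, which hold values identical to its first. A difference of the opposite sign appeared in 4 of the 17. Rps18, a ribosomal protein gene near H2-Ea with 7 probe sets, was lower in AIRmax on all of them, with differences of -0.20 to -0.27, but only the brightest separated the lines. The cilia gene Cfap57 differed by -0.56 on the probe set used, whereas its dimmer one was 4.31 ± 0.16 in AIRmax and 4.06 ± 0.13 in AIRmin. For Ndfip2, an adaptor of ubiquitin ligases (-0.41), the dimmer probe set read 3.63 in both lines, the level of absent transcripts. For Plekho2 (0.74) it was 5.34 ± 0.27 in AIRmax and 5.16 ± 0.07 in AIRmin (SD, n = 8 each), and the lines overlapped.

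Prkx, an X-linked protein kinase, had the smallest SD in AIRmax of the 9 genes. It read 7.85 to 8.36 (median 8.06) in AIRmax and 6.18 to 6.60 (median 6.40) in AIRmin, with SDs of 0.15 and 0.14 (n = 8 each). Its difference was 1.76 ± 0.09 (SE) in control and 1.64 ± 0.14 in pristane footpads. Abca5, a lipid transporter, was 6.52 to 7.65 (median 7.29) in AIRmax and 8.15 to 8.67 (median 8.49) in AIRmin.

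Gbp2b, an interferon-induced GTPase of the guanylate-binding protein family, read 5.23 to 7.66 (median 6.34) in AIRmax and 4.08 to 4.40 (median 4.29) in AIRmin, at least 4.39-fold higher. AIRmax varied widely for this gene, with an SD of 0.73, whereas the AIRmin arrays lay within 0.31 log2 units of each other near the level of absent transcripts. Cd300ld, an activating receptor of myeloid cells, read 5.93 to 7.99 (median 6.92) in AIRmax and 4.46 to 5.15 (median 4.76) in AIRmin. Its neighbour Cd300c2 read 6.06 to 7.79 (median 6.43) and 4.91 to 5.93 (median 5.62). The lines were kept apart in both receptors, by a gap of 0.78 and of 0.14.

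Tlr1, which pairs with Tlr2 to sense bacterial lipopeptides, read 5.06 to 6.51 (median 5.56) in AIRmax and 3.68 to 4.33 (median 4.14) in AIRmin. Nlrp3, the sensor of the best known inflammasome, read 4.51 to 5.66 (median 4.95) and 3.86 to 4.42 (median 4.21). Nlrc4, the inflammasome partner of flagellin receptors, read 4.49 to 5.26 (median 4.70) and 3.55 to 4.47 (median 4.04). In all 3 the mean of AIRmin was at the level of absent transcripts. The list of Toll-like receptors and inflammasome sensors had 9 of 24 called higher in AIRmax and 0 lower, where 4.01% of all genes were called higher, and its median was 0.45 against -0.02 over all genes. The mean of the list ran from 5.85 to 6.69 in AIRmax and from 5.34 to 5.83 in AIRmin. The highest mean, 6.69, was that of array 112, and arrays 108 and 109 followed with 6.31 and 6.32. Without these 3 arrays 3 genes of the list were called, where 0.537% of all genes were, and they were Tlr1, Nlrp3 and Nlrc4, with a list median of 0.36. The median line difference of the 15 neutrophil and granulocyte precursor markers was 1.62 with all arrays and 1.02 without the 3. Arrays 108, 109 and 112 were highest in both lists, but the lists did not go together on every array. AIRmin array 118 had a granulocyte mean of 10.70 and a mean of 5.83 for the Toll-like receptor list. What granulocytes contribute to the result was not tested.

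Pla2g2a, Mmp13 and Bst1 were also higher in AIRmax, with narrow gaps. Pla2g2a, a secreted phospholipase A2, read 5.15 to 7.88 (median 7.03) in AIRmax and 4.36 to 5.14 (median 4.80) in AIRmin, with a gap of 0.01. Mmp13, a collagenase of cartilage and bone, read 9.93 to 11.71 (median 10.60) and 7.20 to 9.90 (median 9.03), with a gap of 0.03. Bst1, a surface enzyme of bone marrow stromal and myeloid cells, read 6.34 to 8.59 (median 7.57) and 4.96 to 6.20 (median 5.66). Without arrays 108, 109 and 112 limma still called Pla2g2a (1.94, adjusted p = 0.00707) and Bst1 (1.40, adjusted p = 0.0272), but not Mmp13 (1.56, adjusted p = 0.119). The Arf exchange factor Cyth4 (0.84, adjusted p = 0.121) and Cd300c2 (0.89, adjusted p = 0.094) also lost their calls. Across 14 macrophage markers the list mean was 8.10 to 8.61 in AIRmax and 7.46 to 8.18 in AIRmin, and 5 were called higher and 1 lower with all arrays (8.0% of all genes were called), and 0 without the 3. The median difference of these markers was 0.41 with all arrays and 0.33 without the 3. Of 9 bone markers measured, Mmp13 among them, 3 were called higher in AIRmax and 0 lower with all arrays, and 0 without the 3. Their median difference was 0.28 with all arrays and 0.13 without the 3. The mean of the bone list was 7.88 to 8.39 in AIRmax and 6.65 to 8.60 in AIRmin. What bone content contributes to Mmp13 was not tested. Fewer cells of a type and less RNA per cell cannot be told apart in these whole footpads.

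Cd59a, Adh7, Defb1 and the neighbours Serpinb7 and Serpinb2 were lower in AIRmax. Cd59a, which protects cells from the complement attack complex, read 5.65 to 6.65 (median 6.43) in AIRmax and 6.89 to 7.77 (median 7.57) in AIRmin. Adh7, a retinol and alcohol dehydrogenase of epithelia, read 6.51 to 7.96 (median 7.59) and 8.08 to 9.66 (median 8.95). Both kept their calls without arrays 108, 109 and 112, at -1.29 (limma adjusted p = 0.000512) and -1.17 (0.0144). Defb1, an antimicrobial defensin of epithelia, did so as well, at -0.77 (adjusted p = 0.00865) from -1.11 with all arrays. The epidermal protease inhibitor Serpinb7 moved from -1.24 to -0.76 (adjusted p = 0.0683) and was no longer called. Its neighbour Serpinb2 moved from -1.05 to -0.68 (adjusted p = 0.134) and the keratinocyte cystatin Csta1 from -0.94 to -0.43 (adjusted p = 0.134), both chosen here after their values were seen. Keratinocyte markers were 0 called of 13 in either direction, with a list median of -0.50 with all arrays and -0.09 without the 3.

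Some of the large differences concern genes of other or little known function. The actin-binding protein gene Marcksl1 read 7.79 to 9.53 (median 8.24) in AIRmax and 6.88 to 7.41 (median 7.17) in AIRmin. The uncharacterised 1810037I17Rik read 5.17 to 6.35 (median 5.86) in AIRmax and 3.77 to 4.80 (median 4.15) in AIRmin, where its mean was at the level of absent transcripts. Lower in AIRmax were the centrosomal Sfi1, at 6.11 to 6.56 (median 6.22) against 6.85 to 8.01 (median 7.47), and the noncoding AI506816, at 4.34 to 6.23 (median 6.02) against 6.44 to 7.85 (median 7.06). These 4 kept their calls without arrays 108, 109 and 112, with limma adjusted p from 0.000512 to 0.00766. The interferon-induced Ifi44l, at 3.40 to 3.88 (median 3.62) against 3.97 to 5.50 (median 4.93), did not (-1.17, adjusted p = 0.0702), although its difference was unchanged to 2 decimals.

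A list of 25 genes known to vary in expression or copy number among mouse strains, written from general knowledge, had 23 measured genes, of which 6 were among the 149, where 0.747% of all genes were: Glo1, H2-Ea, Tpsab1 and Nnt lower in AIRmax, and Gbp2b and Pla2g2a higher. Nnt, the mitochondrial proton-pumping transhydrogenase, read 6.74 to 7.59 (median 7.22) in AIRmax and 7.61 to 8.05 (median 7.90) in AIRmin. All 6 were also called without arrays 108, 109 and 112. The list was written with earlier results of these data known, so this count is not independent evidence. In the RefSeq annotation of the C57BL/6J reference, 5 of the 149 genes (3.36%) are transcribed pseudogenes, namely H2-Ea, Tpsab1, Nlrp1c-ps, Abhd1 and Pla2g2a, against 0.838% of the genes tested. Abhd1, a hydrolase fold protein, was higher in AIRmax at 6.29 to 6.98 (median 6.49) against 5.30 to 5.93 (median 5.55), so genes of this class were higher in either line.

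Across the genome the 149 genes were spread over all autosomes but chromosome 19, and over X. Chromosome 17 held 18 of 936 genes tested (1.92%), 12 of them higher in AIRmax, while the other chromosomes held between 0 and 1.2%. Chromosome 19 held 0 of 675 genes and chromosome 5 held 11 of 1140 (0.965%), including Tlr1, Bst1 and Abhd1. Within 1 Mb of the start of 45 of the 148 placed genes (30.4%) another of them started, against 16.8% of the other genes. They formed 20 runs, 16 of them pairs, and in 13 runs all genes were higher in the same line. Among these 13 is the pair of Cyb5r4 and Cep162 on chromosome 9, where the Cyb5r4 probe set used is numbered among those of chromosome 4. The other Cyb5r4 probe set, numbered among those of chromosome 9, did not separate the lines (gap -0.433).

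**Figure D4:**
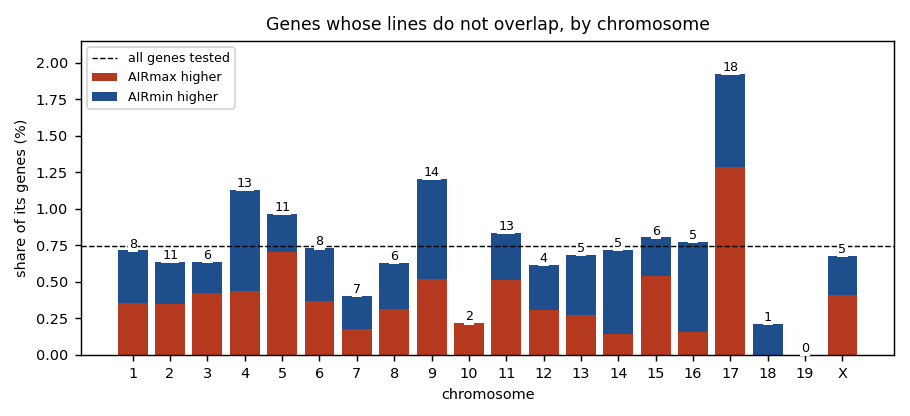
Share of the genes tested on each chromosome whose lines did not overlap (bars, split by the higher line; number of genes above each bar; dashed line, 0.747% over all genes). Chromosome 17 stands highest with 18 genes (1.92%) and chromosome 19 has 0.

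The longest run held 4 genes in the class II region of chromosome 17, where Rps18 and H2-Ea were lower in AIRmax and Vps52 and AA388235 higher. The Rps18 probe set used is numbered among those of chromosome 13, and none of its other probe sets separated the lines, so without it the run holds 3 genes, as many as 3 other runs. Both lines were at the level of absent transcripts for AA388235. Vps52, a subunit of a tethering complex of the Golgi, read 6.82 to 7.14 (median 6.90) in AIRmax and 6.48 to 6.68 (median 6.58) in AIRmin. Its difference was only 0.35, yet limma called it without arrays 108, 109 and 112 too (0.31, adjusted p = 0.0341). Further along the chromosome, H2-Q10, a secreted class I molecule, was higher in AIRmax by 0.35 with a gap of 0.04 and with AIRmin at the level of absent transcripts. Its AIRmax mean, 4.43, was itself only just above that level. Without arrays 108, 109 and 112 limma did not call H2-Q10 (0.27, adjusted p = 0.137). Runs of related genes were Cd300ld with Cd300c2 on chromosome 11, Serpinb7 with Serpinb2 on chromosome 1, Atp13a5 with Atp13a4 on chromosome 16, and the microRNA cluster on chromosome 8.

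Whether pristane changed these genes, or the lines' difference in them, was asked with readouts that the rule did not use directly, although a gene that responds strongly is less likely to keep its lines apart. The interaction term, the pristane response of AIRmax minus that of AIRmin, was called by limma in 34 of all genes (0.171%). It was called in 0 of the 149, with a smallest adjusted p of 0.126. A share of 0.171% leaves little room for calls among 149 genes, so the 0 says little. The unadjusted limma p was under 0.05 in 22 of the 149 and in 1637 of all 19938 genes. The interaction term ranged from -1.48 to 1.69 over the 149 with a median of 0.00, and 26 genes exceeded 0.5 in size. A change of that size in single genes was therefore measured but not separated from the spread of 4 arrays a group. Pla2g2a had the lowest value, -1.48 ± 0.35 (SE), as its mean was 7.56 ± 0.24 in AIRmax control and 5.87 ± 0.67 in AIRmax pristane, and 4.89 ± 0.19 and 4.68 ± 0.26 in AIRmin (SD, n = 4 each). Mmp13 had the highest, 1.69 ± 0.62, with 10.18 ± 0.30 and 11.22 ± 0.41 in AIRmax and 9.22 ± 0.50 and 8.56 ± 1.20 in AIRmin. Cd300ld, at 1.13 ± 0.33, was 6.29 ± 0.42 and 7.43 ± 0.46 in AIRmax and 4.75 ± 0.09 and 4.76 ± 0.33 in AIRmin. The 3 adjusted p-values were 0.126, 0.453 and 0.249 in limma.

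Pristane over both lines was called for 452 of all genes (2.27%; 89 up, 0.446%, and 363 down, 1.82%), and for 2 of the 149. Cd59a fell by 0.53 ± 0.12 (SE, limma adjusted p = 0.0335), from 6.62 ± 0.03 to 5.96 ± 0.34 in AIRmax and from 7.66 ± 0.14 to 7.26 ± 0.37 in AIRmin (SD, n = 4 each). Nlrp3 rose by 0.46 ± 0.11 (adjusted p = 0.0425), from 4.67 ± 0.13 to 5.35 ± 0.27 in AIRmax and from 4.03 ± 0.26 to 4.26 ± 0.08 in AIRmin. For Nlrp3 the AIRmin values were at the level of absent transcripts, and without arrays 108, 109 and 112 only Cd59a of the 149 genes was called. Within AIRmax alone 56 genes of all (0.281%) were called and 0 of the 149. Within AIRmin 0 of all genes (0%) were called by limma, with 2469 at an unadjusted p under 0.05. Sex was called in 16 of all genes (0.0802%) and in 0 of the 149.

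Each treatment taken alone gave fewer calls, as each comparison then held 4 arrays against 4. In control footpads limma called 16 of all genes (0.0802%), 15 of them among the 149, and in pristane footpads 271 (1.36%), 44 of them among the 149. The same values chose the 149, so these overlaps, and that of the genes called in both treatments, are descriptions. The lines did not overlap for 2059 genes (10.3%) in control and for 2162 (10.8%) in pristane footpads, and the 149 are by construction the genes separated in both that also stay separated between treatments. Called in both treatments were 11 genes, all among the 149 and each with the same sign: H2-Ea, Tpsab1, Glo1, Cd59a and Opcml lower in AIRmax, and Man2a2, Abhd1, Tlr1, Cd300ld, Prkx and Kcnma1 higher. Opcml, a neural adhesion molecule, differed by -0.74 ± 0.08 (SE) in control and -0.69 ± 0.13 in pristane footpads. Man2a2, a Golgi mannosidase of N-glycan processing, differed by 0.63 ± 0.07 and 0.56 ± 0.10.

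**Figure D5:**
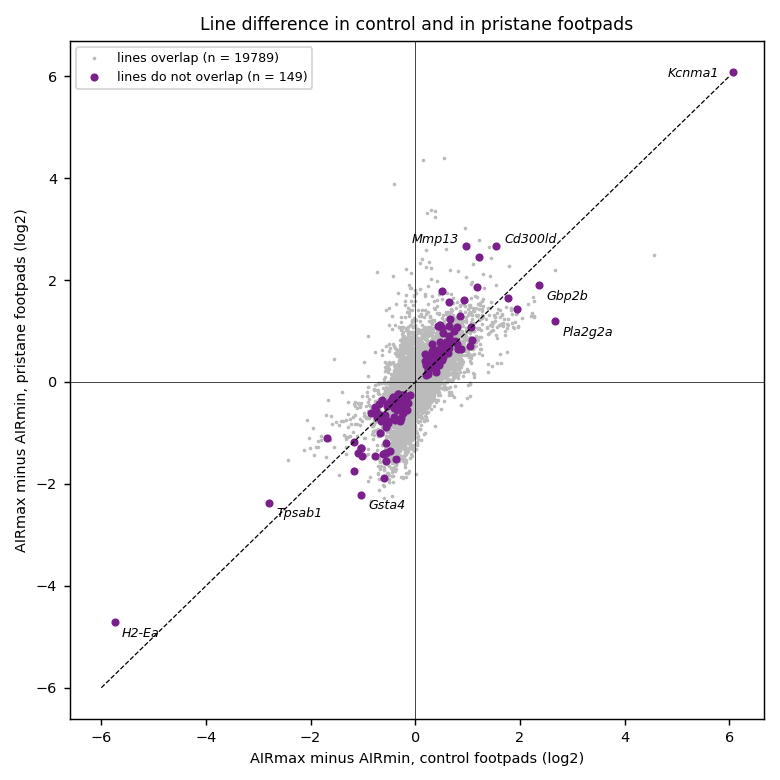
Line difference (AIRmax minus AIRmin, log2) in pristane footpads against that in control footpads for 149 genes whose lines did not overlap (purple) and the other 19789 genes (grey); the dashed line marks equal differences. Kcnma1 and H2-Ea lie far from all other genes named, and Mmp13 and Cd300ld lie above the line of equality and Pla2g2a below it.

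The size of the difference was larger in pristane footpads in 100 of the 149 genes and larger in control footpads in 49, with median sizes of 0.57 and 0.48. The same split over all genes is not given here, so it is not read as a trait of the 149. Of the arrays with low keratinocyte and high granulocyte markers, 109 and 112 were pristane arrays and 108 a control array. What these arrays contribute to the split was not tested. The median SD of the 149 genes within a line over 8 arrays was 0.19 in AIRmax against 0.20 over all genes, and 0.16 in AIRmin against 0.18.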

How the data were processed

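The authors deposited 1 table of log2 signals for 35556 probe sets on 16 arrays. The sample titles name the RMA gene-level method, whereas the processing notes name MAS5, with no version; the values have the range of log2 RMA signals. Of the probe sets 21789 were annotated to 1 gene, 1621 to several and 12146 to none, and 21698 could be matched to RefSeq (GRCm38.p6). The probe set with the highest mean stood for each gene, which left 19938 genes, 999 of which had more than 1 probe set. Probe sequences were not used. No filter on low signals was applied.

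Line differences were fitted with limma 3.58.1 (R 4.3.3), with line and treatment as terms, on all 16 arrays, with Benjamini-Hochberg adjustment across the 19938 genes. Interaction, treatment and sex terms and the comparisons within each treatment or line were fitted in the same way. The fit was tested on simulated data. The number of arrays limits the precision. The study calls the arrays biological replicates, and p-values measure only the spread between these arrays.

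The gene lists and the set of genes were chosen with earlier results of these data known. Genes named in the text were, among those whose lines did not overlap, the 12 with the largest difference in each direction, up to 4 of each gene list, all of the run of 4, the 3 with the widest gap on chromosome 5 and on chromosome 8, the 2 with the narrowest gap and the 2 just outside, those called for pristane and up to 4 whose probe sets disagreed; Slc11a1 was not analysed here. List genes beside them, genes called in both treatments and those of the runs were named after their values were seen. Alternatives were the mean of the probe sets of a gene, all annotated probe sets, standardized arrays, quantile normalization, a filter on low signals, a sex term, a trended robust prior, no treatment term, each treatment, line or sex alone, a minimum difference, each array left out and, added after the values were seen, 3 arrays left out together.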

Additional observations from a re-analysis of the deposited data

Results flagged for a closer look

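In 240 checks of single genes within a group of 4 or a line of 8 arrays, 1 array stood away from the rest of its group 8 times; chance alone gives about 1 in 20. In AIRmax control, array 105 read 3.83 for H2-Ea against 4.02 to 4.06 on the others, all at the level of absent transcripts. Array 108 of the same group, one of the arrays with few keratinocyte and many granulocyte transcripts, read 7.36 for Gsta4 against 8.78 to 8.87, and 4.34 for AI506816 against 6.01 to 6.23. It was also the lowest of all AIRmax arrays for AI506816, the others reading 5.50 to 6.23. Among the AIRmin arrays, 119 read 3.68 for Tlr1 against 4.06 to 4.33. In AIRmin control, array 116 read 4.42 for Nlrp3 against 3.86 to 3.92, and array 113 read 6.68 for Vps52 against 6.48 to 6.50. Among the AIRmax arrays, 107 read 4.59 for AA388235 against 3.94 to 4.24.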

How the results depend on the processing

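Leaving out each array in turn gave 549 to 2142 genes with a line difference (1596 with all), 159 to 281 genes without overlap (149 with all, each of which is kept by construction), 15 to 120 with an interaction (34 with all) and 0 to 2 of the 149 genes with a pristane difference (2 with all). The line count fell by over 1.5 times without array 108 (645), 109 (622), 112 (615), 113 (976), 114 (825), 115 (638), 117 (549), 119 (892) or 120 (734). Genes without overlap rose by as much without 110 (235), 116 (281) or 118 (247). The interaction count went to 120 when array 109 was absent, 71 for array 118, 22 for 119, 17 for 112, 16 for 105 or 117 and 15 for 116. For pristane, 0 of the 149 were called without 105, 106, 107, 110, 111, 114, 115 or 119, and 1 without 109, 112, 113, 117 or 120. Without 108, 109 and 112 together, which leaves 13 arrays, the line count was 107 and the pristane count 1.

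The line count was 1063 with no treatment term, 16 in control arrays, 271 in pristane arrays and 178 among genes at least 2-fold apart. Genes without overlap numbered 98 above the median signal, 2059 in control, 2162 in pristane arrays, 1092 in males, 1598 in females and 9 with the lines at least 0.5 apart; fewer arrays separate more genes. Of the 149, 116 were without overlap in standardized arrays, 107 after quantile normalization and 143 with the mean of the probe sets of a gene, and 97 in all of these. The mean of probe sets can change only the 10 genes with more than 1 probe set, and 6 of these 10 lost their separation. All 44 with a gap of at least 0.1 were kept by both scalings, and the mean of probe sets lost Cfap57 and Ndfip2 of these. The interaction count was 61 in standardized arrays. Of the 149, 1 was called for pristane above the median signal, in standardized arrays or after quantile normalization, and 0 in AIRmax alone or AIRmin alone. For single named genes, 937 values under the alternatives kept direction and side of the threshold, 88 missed the threshold and 0 changed direction. For genes of the 149 the direction cannot change when arrays are left out, because the rule had separated all arrays. The 0 is therefore fixed in advance for those alternatives and says nothing about how stable the differences are. No paired analysis was possible because each array has a number of its own. Signals near the level of absent transcripts limit what the 21 genes with a line at that level can show.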

Other observations

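Probe sets that could not be given to a single gene were not part of the 149. Among 12146 probe sets with no gene in the annotation table, the lines did not overlap in 49 (0.403%), 21 higher in AIRmax and 28 higher in AIRmin. Among 1621 with several genes they did not overlap in 13 (0.802%), 4 higher in AIRmax and 9 in AIRmin. Gaps of at least 0.5 were found in 7 and 6 of these. The 9 probe sets of several genes higher in AIRmin, the 6 with such gaps among them, all name Gm21158, Gm3893 and Gm10590 among their genes. Those higher in AIRmax name Sirpb1a, Sirpb1b and Sirpb1c, except that of Mir664 and Snora36b. The 13 are therefore not separate genes, and their share is not read as a result. The largest difference without a gene was -3.73 with a gap of 2.12, held with the same values by 4 probe sets. Of the genes whose lines overlapped, 684 were kept out of the 149 by exactly 1 array.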
